A study of Mus musculus with 18 samples.

Results

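The 9 genes described here, Drd1, Tac1, Drd2, Adora2a, Penk, Ppp1r1b, Rgs9, Pde10a and Adcy5, are expressed most strongly in projection neurons of the striatum, the nucleus that lies under the cortex. They were taken by symbol, as a set of genes that a cortical dissection can also pick up at its lower border. All 9 were present among the 13784 genes of each of the 3 tables that the authors deposited. The tables come from bulk RNA sequencing of dissected cortex from 18 mice of 4 to 6 months in 4 groups. They were 5 astrocyte-specific Chd8 conditional knockout (cKO) mice given lipopolysaccharide (LPS), 4 cKO mice given saline, 5 control mice given LPS and 4 control mice given saline. LPS, the bacterial cell-wall glycolipid that triggers innate immune receptors, was injected into the abdominal cavity at 5 mg/kg and tissue was taken 72 hours later. The labels used here do not give the driver of the knockout, the alleles that the controls carry or the sex of the mice, and the titles of LPS libraries carry the word for saline although their genotype and treatment labels name LPS.

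Striatal projection neurons are inhibitory cells that receive dopamine and fall into a direct-pathway class and an indirect-pathway class. Direct-pathway cells carry the D1 dopamine receptor, which raises cyclic AMP, and make substance P. Indirect-pathway cells carry the D2 dopamine receptor, which lowers cyclic AMP, together with an adenosine receptor, which raises it, and make enkephalin. Neurons of the cortex use some of the same genes at lower levels: subsets of cortical inhibitory interneurons make enkephalin or substance P, and deep-layer cortical neurons contain the phosphatase inhibitor encoded by Ppp1r1b.

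Chd8 itself, measured in whole tissue of which astrocytes are a part, had a log2 fold change, cKO minus control, of 0.02 ± 0.05 (standard error, SE) after LPS, with a false discovery rate (FDR) of 0.901, in the authors' deposited table, and an estimate of -0.09 after saline. Transcripts of the sex chromosomes moved with the groups. The Y-linked gene Ddx3y had a back-calculated level of 52.5 CPM (read counts scaled to library size) in cKO LPS, 58.6 CPM in cKO saline, 12.8 CPM in control LPS and 0.0069 CPM, a fitted value near 0, in control saline cortex. Uty, also Y-linked, followed the same order with 19.7 CPM in cKO LPS, 27.8 CPM in cKO saline, 5.52 CPM in control LPS and 0.0061 CPM in control saline cortex. From the comparison of genotypes after LPS, the control LPS estimates were instead 18.9 CPM for Ddx3y and 9.08 CPM for Uty. Both genes were called higher after LPS in control mice, where 6.46% of all genes were called higher. Xist, the RNA that silences an X chromosome, had 60.0 CPM in cKO LPS, 20.3 CPM in cKO saline, 161 CPM in control LPS and 177 CPM in control saline cortex. Sex and group therefore cannot be told apart, for the striatal genes as for others.

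The values of the striatal genes lay higher in cKO than in control cortex after LPS in 9 of 9 cases, against 50.5% of all genes above 0, but no single gene passed the test. By the authors' deposited table of that comparison, 0 of the 9 passed an FDR of 0.05, against 0.00725% of all genes. At an unadjusted p below 0.05 there was 1 of 9, Ppp1r1b, against 12.3% of all genes. The median log2 fold change of the 9, cKO minus control, was 0.63 in the authors' deposited table, against 0.0016 over all genes, with a range of 0.25 to 0.78. A level at least 1.5-fold higher was listed for 6 of the 9 and for 1.27% of all genes. The standard errors of the 9 there were 2.41 to 4.93 times the median of genes at their level. The 1.27% is thus not the share of genes with a like spread. Within genotypes, Drd2 and Ppp1r1b rose after LPS in cKO mice, 2 of 9 against 10.9% of all genes called higher, 8.52% called lower and 19.5% called in either direction. In control mice 0 of the 9 passed, against 6.46% called higher, 3.31% called lower and 9.76% in either direction, and 0 had an unadjusted p below 0.05, against 28.9% of all genes. Values above 0 were found for 8 of the 9 after LPS in cKO mice (49.8% of all genes) and for 3 of the 9 in control mice (49.5%). The medians of the 9 were 0.28 in cKO and -0.08 in control mice in the authors' deposited tables, and 0.19 and -0.16 once a trend over GC content and length was removed. Because whole tissue was sequenced, more cells of a type and more RNA per cell cannot be told apart. The genes share libraries and cells, so 9 genes on the same side are not 9 separate observations. They were also chosen with earlier results of these data known, so the shares of all genes are given for description only.

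Values per library were not used here and their depth is unknown, so the level of each gene was back-calculated per group from the group sizes, the deposited fold change and the deposited mean log2 CPM. These levels are estimates without an error. Each LPS group can be reached from 2 tables, and for these genes the pair of estimates differed by at most 0.11 on the log2 scale. The cKO LPS group had the highest level of the 4 groups for 8 of the 9 genes, and the control LPS group had the lowest for 6. The exception at the top was Drd1, which was highest in cKO saline cortex. Summed over the 9 genes, the level was 732 CPM in cKO LPS, 624 CPM in cKO saline, 537 CPM in control LPS and 576 CPM in control saline cortex.

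**Figure D1:**
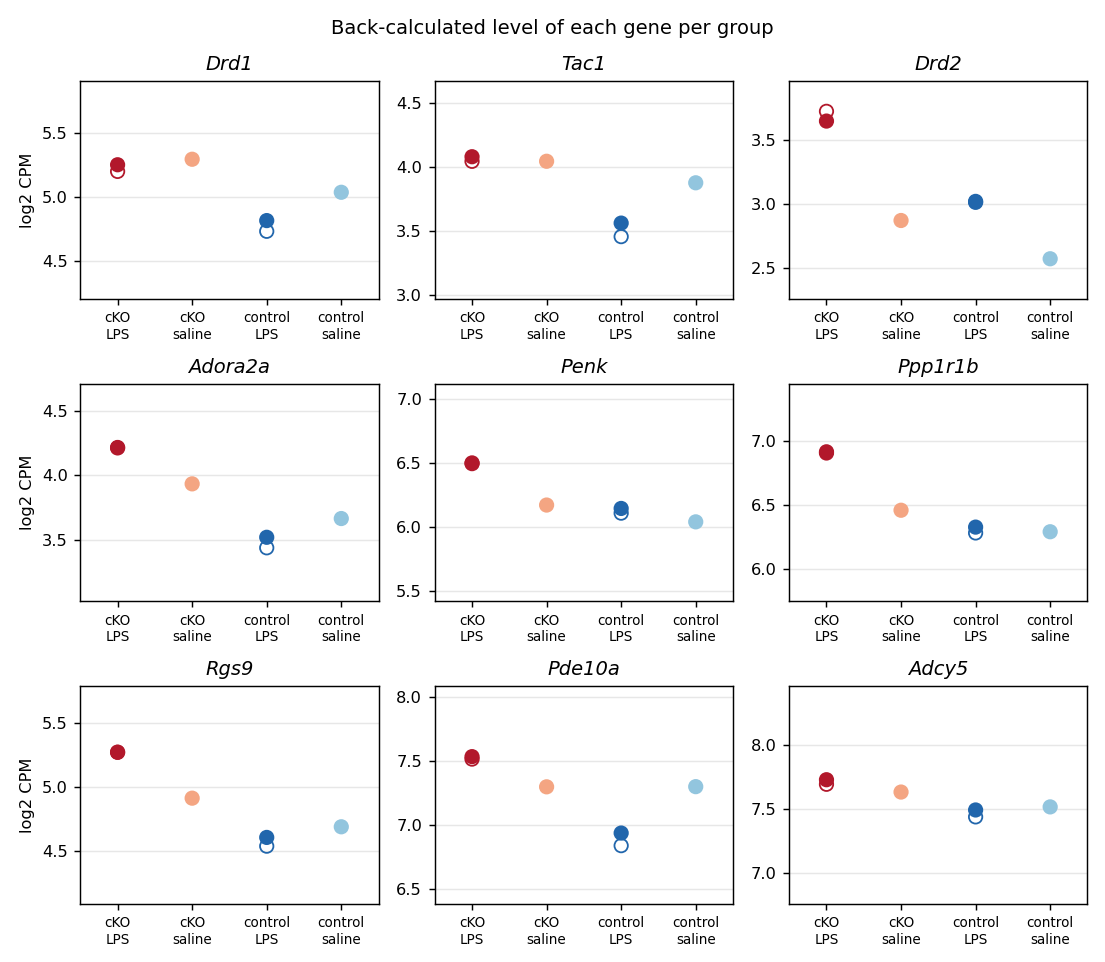
Back-calculated level in log2 CPM (vertical axis) of each of the 9 genes in cKO LPS, cKO saline, control LPS and control saline cortex. Filled points come from the LPS-against-saline table of each genotype, open points from the table of genotypes after LPS, and each panel spans the same number of log2 units. The cKO LPS point is the highest in every panel except that of Drd1.

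Among direct-pathway genes, the D1 receptor gene Drd1 had a back-calculated level of 38.1 CPM in cKO LPS, 39.2 CPM in cKO saline, 28.1 CPM in control LPS and 32.8 CPM in control saline cortex. The control LPS group was thus the low one, and both cKO groups stood close together. In the authors' deposited tables, the log2 fold change of Drd1 was 0.47 ± 0.23 (SE) for cKO against control after LPS (FDR = 0.442), -0.04 ± 0.14 for LPS in cKO (FDR = 0.846) and -0.22 ± 0.20 for LPS in control mice (FDR = 0.495). Tac1, which encodes the precursor of substance P, stood at 16.9 CPM in cKO LPS, 16.5 CPM in cKO saline, 11.8 CPM in control LPS and 14.7 CPM in control saline cortex. This is the same order of LPS and saline groups within controls as for Drd1. The authors' deposited tables gave Tac1 0.59 ± 0.36 for cKO against control after LPS (FDR = 0.542), 0.04 ± 0.20 for LPS in cKO (FDR = 0.913) and -0.31 ± 0.27 for LPS in control mice (FDR = 0.469). For this pair the LPS response in cKO mice was near 0, and the larger of the within-genotype values were the negative ones in controls.

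Promoter sequence was listed by RefSeq (build GRCm38.p6) for 6 of the 9 genes in 8 windows, and Ppp1r1b, Penk and Adora2a had no entry. The 250 bases before the start are printed for both direct-pathway genes, which share a pattern of values, and for Adcy5, the member with the smallest difference between genotypes after LPS. A GENCODE coding transcript begins within each of these windows. Capitals mark TGACGTCA (a full cAMP response element), TGCGTCA (the element known from the Penk promoter), TATAAA and GGGCGG (a GC box), each searched on both strands.
Tac1 (chr6:7554811-7555060, + strand): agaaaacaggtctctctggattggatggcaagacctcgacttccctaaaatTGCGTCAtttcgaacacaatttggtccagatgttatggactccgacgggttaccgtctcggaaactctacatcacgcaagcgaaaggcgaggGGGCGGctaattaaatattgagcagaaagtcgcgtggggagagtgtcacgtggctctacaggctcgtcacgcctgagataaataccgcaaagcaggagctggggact
Drd1 (chr13:54055659-54055908, - strand): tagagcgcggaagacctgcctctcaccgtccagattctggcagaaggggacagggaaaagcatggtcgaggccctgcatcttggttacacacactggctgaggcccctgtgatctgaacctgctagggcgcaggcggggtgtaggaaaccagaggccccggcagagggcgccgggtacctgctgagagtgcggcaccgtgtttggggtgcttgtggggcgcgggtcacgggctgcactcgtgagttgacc
Adcy5 (chr16:35154614-35154863, + strand): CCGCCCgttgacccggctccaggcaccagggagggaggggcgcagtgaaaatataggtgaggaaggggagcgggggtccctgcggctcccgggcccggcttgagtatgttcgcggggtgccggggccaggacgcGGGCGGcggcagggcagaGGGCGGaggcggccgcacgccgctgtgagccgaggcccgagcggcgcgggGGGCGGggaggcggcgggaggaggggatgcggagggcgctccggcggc

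The Tac1 window held 1 TGCGTCA, 199 to 193 bases before the start, an element that 1.75% of 32851 mouse promoter windows hold, and 1 GGGCGG. The Drd1 window shown held none of the 4 motifs. The Adcy5 window held 4 GGGCGG, a motif found in 32.7% of all windows, and had a GC content of 78% against a median of 52.4%. TGACGTCA was in none of the 8 windows and in 1.55% of all windows; TATAAA was in the Rgs9 window and in 12.4% of all windows. GGGCGG was in 6 of the 8 windows. None of these motifs overlapped another in the windows shown. The matches describe letters only, and the tables hold no measurement of binding.

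The indirect-pathway genes include the largest LPS response of the set. Drd2, the D2 receptor gene, stood at 12.5 CPM in cKO LPS, 7.32 CPM in cKO saline, 8.08 CPM in control LPS and 5.95 CPM in control saline cortex. In the authors' deposited table Drd2 rose after LPS in cKO mice by 0.78 ± 0.23 on the log2 scale, which is 1.71-fold with a 95% interval of 1.19 to 2.46 (FDR = 0.0449). The call lies close to the threshold. It ended when a trend over mean log2 CPM was removed (0.74, adjusted p = 0.056) and when a trend over GC content and length was removed (0.66, adjusted p = 0.078). In control mice the authors' deposited table gave Drd2 a log2 fold change of 0.44 ± 0.49 after LPS (FDR = 0.589). For cKO against control after LPS it gave 0.70 ± 0.55 (FDR = 0.628), with an interval of -0.54 to 1.95.

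Adora2a, the gene of the adenosine receptor of these cells, had 18.6 CPM in cKO LPS, 15.3 CPM in cKO saline, 11.5 CPM in control LPS and 12.7 CPM in control saline cortex. Both cKO groups were above both control groups in these estimates. Its value for cKO against control after LPS was the largest of the 9 in the authors' deposited table, 0.78 ± 0.50 (FDR = 0.559), with an interval of -0.37 to 1.93. LPS gave 0.28 ± 0.24 in cKO mice (FDR = 0.418) and -0.15 ± 0.40 in control mice (FDR = 0.843) in the authors' deposited tables. Penk, the enkephalin precursor gene, stood at 90.6 CPM in cKO LPS, 72.2 CPM in cKO saline, 70.8 CPM in control LPS and 65.9 CPM in control saline cortex. Its 3 lower groups lay close together. The authors' deposited tables gave Penk 0.39 ± 0.26 for cKO against control after LPS (FDR = 0.574), 0.33 ± 0.20 for LPS in cKO (FDR = 0.262) and 0.10 ± 0.16 for LPS in control mice (FDR = 0.706).

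For LPS in cKO mice the 3 indirect-pathway genes thus lay between 0.28 and 0.78 in the authors' deposited table, and the 2 direct-pathway genes between -0.04 and 0.04. The corresponding ranges in control mice were -0.15 to 0.44 and -0.31 to -0.22 in the authors' deposited table. These ranges hold for the named genes only. Pdyn, a direct-pathway gene outside the set, had larger values, 0.90 in cKO and 0.72 in control mice in the authors' deposited tables. Whether the classes differ was not tested, since that needs values per library.

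Ppp1r1b encodes a protein that, once phosphorylated by protein kinase A, inhibits a major neuronal phosphatase and serves in both classes of striatal neuron. Its back-calculated level was 120 CPM in cKO LPS, 88.1 CPM in cKO saline, 80.4 CPM in control LPS and 78.4 CPM in control saline cortex. The cKO LPS group stood apart from the other 3 in these estimates. In the authors' deposited table Ppp1r1b rose after LPS in cKO mice by 0.45 ± 0.14, or 1.36-fold with an interval of 1.10 to 1.68 (FDR = 0.0454). The call was lost once the trend over GC content and length was taken out (0.34, adjusted p = 0.11). In control mice the value was 0.04 ± 0.16 (FDR = 0.904) in the authors' deposited table. For cKO against control after LPS, Ppp1r1b had 0.63 ± 0.20 (unadjusted p = 0.0109, FDR = 0.298) in the authors' deposited table, the only interval of the 9 in that comparison that left out 0 (0.19 to 1.08). For LPS in cKO mice, 3 of the 9 (Drd2, Ppp1r1b and Rgs9) had an unadjusted p below 0.05 against 35.8% of all genes in either direction.

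Rgs9, which speeds the shut-off of inhibitory G proteins and limits D2 receptor signalling, was estimated at 38.6 CPM in cKO LPS, 30.1 CPM in cKO saline, 24.3 CPM in control LPS and 25.8 CPM in control saline cortex. Again both cKO groups were above both control groups. In the authors' deposited tables it had 0.73 ± 0.36 for cKO against control after LPS (FDR = 0.441), 0.36 ± 0.13 for LPS in cKO (FDR = 0.0805) and -0.08 ± 0.31 for LPS in control mice (FDR = 0.887). Pde10a, the phosphodiesterase that breaks down cyclic AMP and cyclic GMP in these neurons, was estimated at 185 CPM in cKO LPS, 157 CPM in cKO saline, 122 CPM in control LPS and 157 CPM in control saline cortex. Both saline groups were level, with cKO LPS above and control LPS below them. Its values in the authors' deposited tables were 0.68 ± 0.32 for cKO against control after LPS (FDR = 0.425), 0.24 ± 0.14 for LPS in cKO (FDR = 0.259) and -0.36 ± 0.27 for LPS in control mice (FDR = 0.401).

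Adcy5, the main adenylyl cyclase of striatal neurons, had the smallest difference between genotypes of the set after LPS. It was estimated at 212 CPM in cKO LPS, 198 CPM in cKO saline, 180 CPM in control LPS and 183 CPM in control saline cortex. The authors' deposited tables gave 0.25 ± 0.15 for cKO against control after LPS (FDR = 0.523), 0.10 ± 0.11 for LPS in cKO (FDR = 0.572) and -0.02 ± 0.10 for LPS in control mice (FDR = 0.899). The sign of both LPS values depended on trend removal. Per kilobase of the longest annotated coding transcript, the order of levels in cKO LPS cortex was Penk (62.6 CPM per kb), Ppp1r1b (60.0), Adcy5 (30.2), Pde10a (23.8), Tac1 (13.7), Rgs9 (11.1), Drd1 (10.6), Adora2a (7.17) and Drd2 (4.92). In control LPS cortex the order was the same except that Drd1 (7.87 CPM per kb) stood above Rgs9 (7.03). No spread between mice was available to say which neighbours in this order differ.

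**Figure D2:**
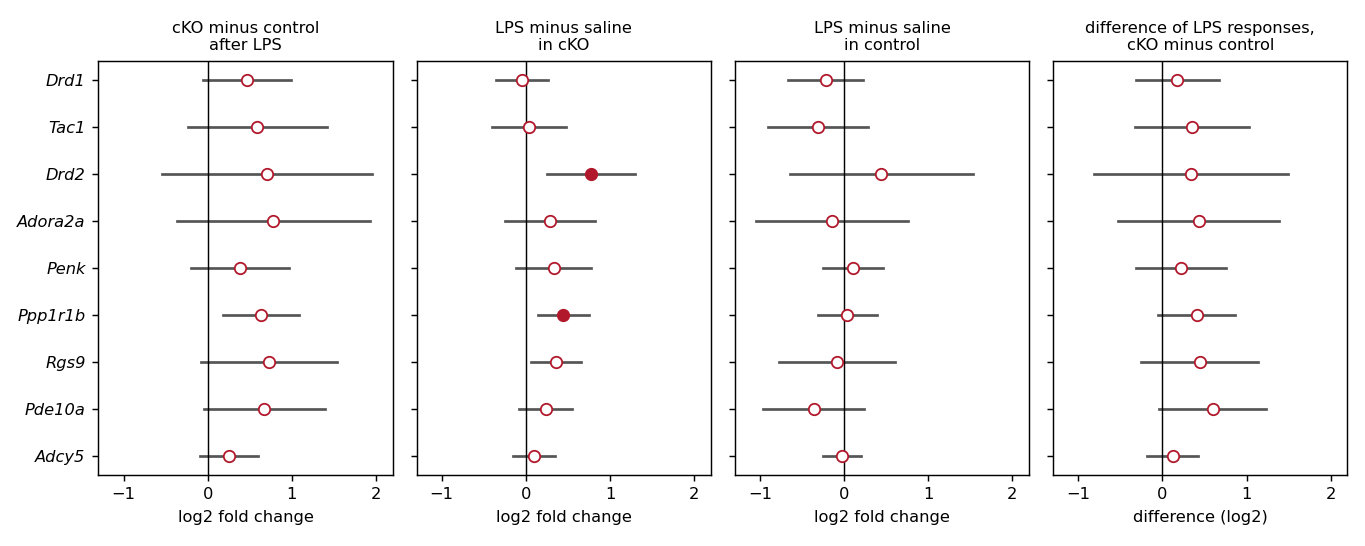
Log2 fold change (horizontal axis) of each gene in the 3 deposited comparisons and, at the right, of the genotype difference in LPS response, with 95% intervals as lines. Filled points passed an adjusted p of 0.05, which only Drd2 (0.78) and Ppp1r1b (0.45) did, for LPS in cKO mice; in the left panel all 9 points lie right of 0.

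Whether the LPS response itself differed between genotypes was tested from the tables of LPS in cKO and in control mice, which share no library. The difference, cKO minus control, lay above 0 for all 9 genes, against 49.9% of all genes, and none passed (0.00725% of all genes did). None had an unadjusted p below 0.05, against 6.52% of all genes. The median was 0.35 on the log2 scale. The largest was that of Pde10a, with LPS values of 0.24 in cKO and -0.36 in control mice and a difference of 0.60 (95% interval -0.04 to 1.23, adjusted p = 0.787 with Benjamini-Hochberg adjustment). Ppp1r1b, the other gene with an unadjusted p below 0.1, had 0.45 in cKO and 0.04 in control mice and a difference of 0.41 (interval -0.05 to 0.87, adjusted p = 0.809). Adcy5 had the smallest, at 0.12 (interval -0.19 to 0.43, adjusted p = 0.931). This difference shares its LPS libraries with the comparison of genotypes after LPS, so the 2 counts of 9 are not separate.

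After saline, the genotypes have no deposited comparison, and the difference was computed from the 3 fold changes as an estimate without error or test. It was above 0 for 9 of 9 genes, against 52.7% of all genes. Drd2 had the largest estimate, 0.37, followed by Adora2a at 0.35, and both Drd1 and Rgs9 at 0.29. Tac1 stood at 0.24, Ppp1r1b at 0.22, Penk at 0.16, Adcy5 at 0.13 and Pde10a at 0.08. The median over the 9 was 0.24 after saline, beside 0.63 after LPS in the authors' deposited table; for Drd1 the estimate after saline was 0.29 and the value after LPS 0.47, while for Pde10a these were 0.08 and 0.68.

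The standard errors of the 9 genes were large for their level. Each gene's standard error was set against the median standard error of all genes within 0.5 log2 CPM of it. For cKO against control after LPS the ratio was above 1 for 9 of 9 genes, with a median of 3.65 and a range of 2.41 to 4.93. In that comparison Pde10a had a standard error of 0.32 where genes of its level had a median of 0.064, and Adora2a had 0.50 against 0.12. For LPS in control mice the median ratio was 2.47 (1.56 to 4.17), and for LPS in cKO mice it was 2.04 (1.66 to 2.93). The control LPS libraries enter the first and second of these comparisons and not the third. Which libraries carry the spread was not tested, since values per library were not used. Drd2 had a standard error of 0.55 for the genotypes after LPS and 0.49 for LPS in control mice, but 0.23 for LPS in cKO mice.

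**Figure D3:**
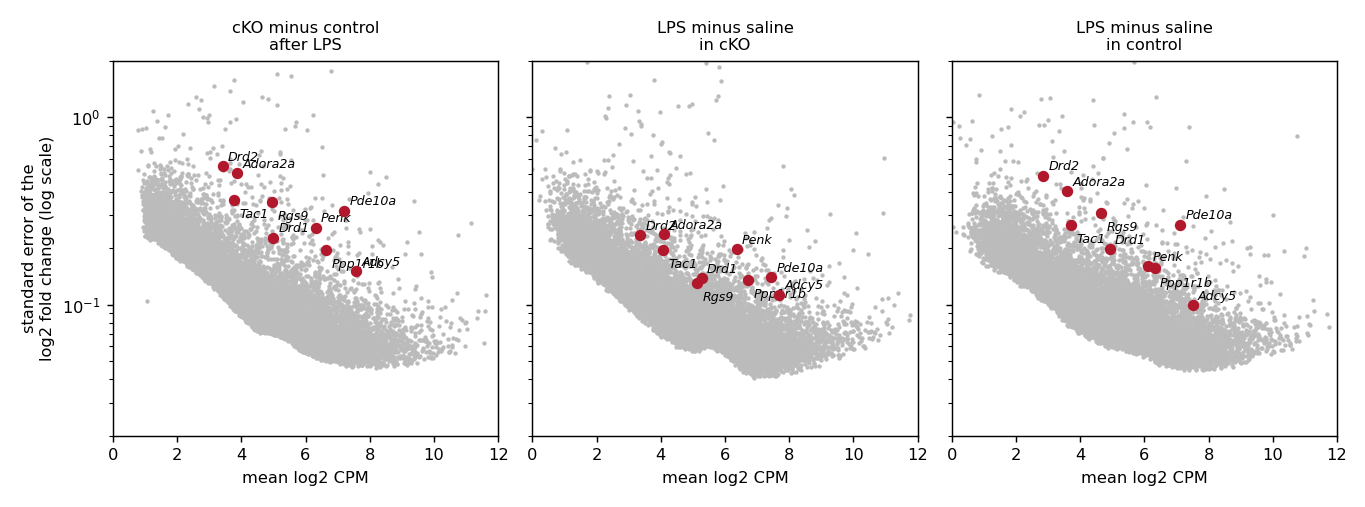
Standard error of the log2 fold change (vertical axis, log scale) against mean log2 CPM (horizontal axis) for all genes within the axes (grey) and the 9 striatal genes (red, labelled), in the 3 deposited comparisons. The red points lie above the bulk of genes of the same level in each panel, with median ratios of 3.65, 2.04 and 2.47 to it.

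A second list of 25 striatum-enriched genes, of which 21 were measured, showed how far the same values extend. None of the 21 passed for cKO against control after LPS, where 0.00725% of all genes did. Above 0 lay 17 of the 21, against 50.5% of all genes. The median of the 21 was 0.29 in the authors' deposited table. An unadjusted p below 0.05 was found for 3 of the 21, against 12.3% of all genes. The receptor gene Gpr52 had the largest value, 0.71 ± 0.23 (FDR = 0.322), in the authors' deposited table. Bcl11b, a transcription factor gene of striatal and deep-layer cortical neurons, had 0.35 ± 0.14 (FDR = 0.364) in the authors' deposited table. The muscarinic receptor gene Chrm4 lay below 0, at -0.19 ± 0.12 (FDR = 0.548) in the authors' deposited table. The estimate of the genotype difference after saline, which has no error or test, was above 0 for 21 of the 21, against 52.7% of all genes. Its median over the 21 was 0.096. After LPS in cKO mice 2 of the 21 rose, against 10.9% of all genes. These were Pdyn, the dynorphin precursor gene of direct-pathway neurons (0.90 ± 0.10, FDR = 0.00341), and Gng7, a G protein subunit gene of the striatal dopamine pathway (0.43 ± 0.12, FDR = 0.0333), in the authors' deposited table. In control mice 1 of the 21 rose, against 6.46% of all genes. It was Pdyn, by 0.72 ± 0.12 (FDR = 0.00976) in the authors' deposited table. Pdyn thus passed in both genotypes, while Drd1 and Tac1, the direct-pathway genes among the 9, passed in neither. The difference between these genes was not tested. The ratio of standard errors to those of genes at the same level had a median of 1.70 for the genotypes after LPS in these 21 genes.

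The tissue label was checked with 15 genes of cortical excitatory neurons, all measured, whose summed level was 2615 CPM in cKO LPS, 2636 CPM in cKO saline, 2735 CPM in control LPS and 2639 CPM in control saline cortex. For cKO against control after LPS 4 of the 15 lay above 0, against 50.5% of all genes, and 11 lay below. None passed, where 0.00725% of all genes did, and the median of the 15 was -0.06 in the authors' deposited table. An unadjusted p below 0.05 was found for 2 of the 15, against 12.3% of all genes. The glutamate transporter gene Slc17a7 had -0.01 ± 0.06 (FDR = 0.946) in the authors' deposited table. The 9 striatal genes thus lay above 0 between the genotypes after LPS, while the excitatory genes had a median close to 0. The excitatory estimates after saline, without error or test, were above 0 for 7 of the 15 and below 0 for 8. Tbr1, a deep-layer transcription factor gene, rose after LPS in both genotypes, by 0.52 ± 0.12 in cKO (FDR = 0.0193) and 0.54 ± 0.13 in control mice (FDR = 0.0322), in the authors' deposited tables. Tbr1 alone of the 15 passed in either genotype, where 10.9% (cKO) and 6.46% (control) of all genes rose.

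Striatal projection neurons share the GABA machinery with interneurons, so 12 interneuron genes were set beside them. For cKO against control after LPS 9 of the 12 lay above 0, against 50.5% of all genes. None passed, where 0.00725% of all genes did, and the median of the 12 was 0.14 in the authors' deposited table. An unadjusted p below 0.05 was found for 3 of the 12, against 12.3% of all genes. After LPS in cKO mice 3 of the 12 rose, against 10.9% of all genes. These were Slc32a1, the vesicular GABA transporter gene (0.52 ± 0.10, FDR = 0.0125), Gad2, a GABA-synthesising enzyme gene (0.25 ± 0.07, FDR = 0.0355), and the serotonin receptor gene Htr3a (0.42 ± 0.13, FDR = 0.0497), in the authors' deposited table. Cck, a neuropeptide gene of cortical neurons, fell by 0.47 ± 0.08 in cKO (FDR = 0.00653) and by 0.30 ± 0.07 in control mice (FDR = 0.0287) in the authors' deposited tables. That was 1 of the 12 in each genotype, where 8.52% (cKO) and 3.31% (control) of all genes fell. The summed interneuron level was 1066 CPM in cKO LPS, 1092 CPM in cKO saline, 1030 CPM in control LPS and 1116 CPM in control saline cortex.

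Other tissue that borders the cortex was measured the same way for cKO against control after LPS. Of all genes 50.5% lay above 0 there. Of 8 myelin genes, markers of the white matter between cortex and striatum, 4 lay above 0 and 4 below, with a median of -0.07 in the authors' deposited table. Their standard errors were large for their level too, with a median ratio of 2.98. Of 5 measured choroid plexus and ependyma genes 5 lay above 0 (median 0.59), with 7 further genes of that list not among the genes analysed. Of 5 measured hippocampal genes 4 lay above 0 (median 0.25), and of 9 thalamic genes 5 did (median 0.16). None of these genes passed in that comparison of the authors' deposited table, where 0.00725% of all genes passed. An unadjusted p below 0.05 was found for 2, both of the choroid plexus and ependyma list, against 12.3% of all genes. The part of neighbouring tissue in the values of the 9 striatal genes was not tested.

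**Figure D4:**
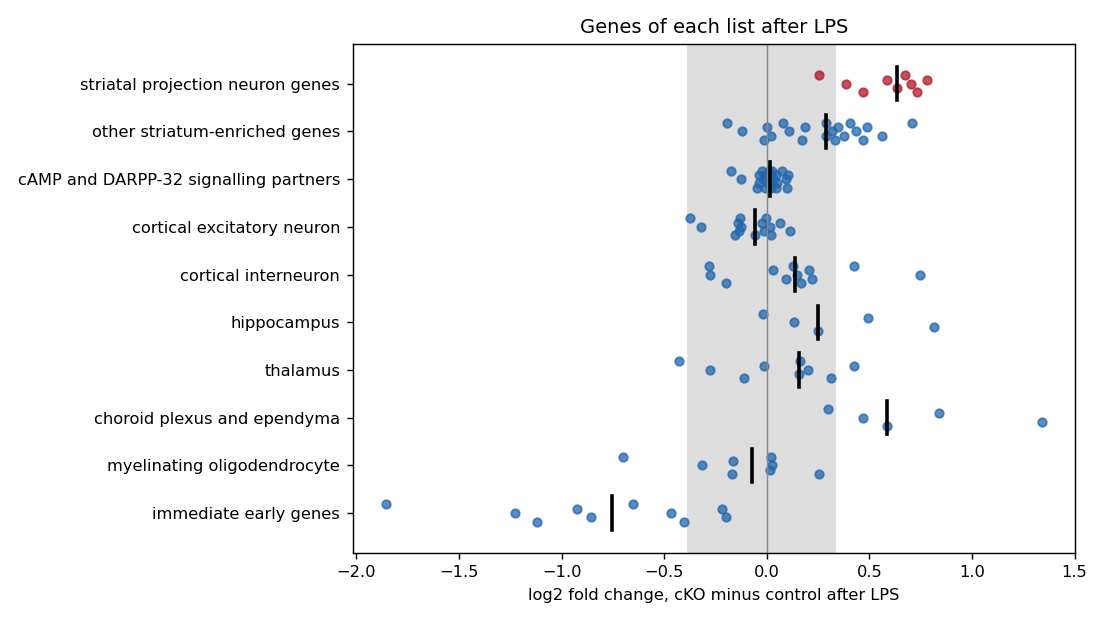
Log2 fold change of cKO against control after LPS (horizontal axis) for each measured gene (point) of 10 lists, with list medians as black bars. Grey marks the range from the 5th to the 95th percentile of all genes (-0.38 to 0.33), and 8 of the 9 striatal genes in red lie to its right.

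By their pattern over the 3 comparisons, the genes outside the set that lay closest to the medians of the set (0.63, 0.28 and -0.08) were ranked among 12580 genes by Euclidean distance in log2 units. The 10 closest genes outside the set were Kyat3 (distance 0.070), Scrg1 (0.074), Ano2 (0.078), Ddit4 (0.11), Klf15 (0.12), Pik3ip1 (0.13), and Gpc4, Paqr5, Tgds and Sft2d3 (0.14 each). None of these is on the second striatal list. The comparisons share libraries, so closeness over 3 values is a description of pattern only. Klf15, the closest gene to pass any of the tests, rose after LPS in cKO mice (0.36, FDR = 0.0219) and had 0.67 for cKO against control after LPS (FDR = 0.147) in the authors' deposited tables. Among the 9 themselves, which were left out of that ranking, Rgs9 (0.12) and Adora2a (0.16) lay nearest to the medians and Drd2 (0.72) farthest from them.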

How the data were processed

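RNA from dissected cortex of 18 mice was depleted of ribosomal RNA and made into stranded libraries, per the labels' protocols. The submitters' processing notes name build GRCm39 and the tools edgeR 3.30.3, RSEM, STAR and cutadapt 3.5, with neither role nor order; how genes were filtered is not stated there. For each of 13784 genes (757 without a symbol) and 3 comparisons the authors deposited, per the file headers, an F statistic (a score), a p-value, an FDR, a log2 fold change and the mean log2 CPM. The FDR equals a Benjamini-Hochberg adjustment of the deposited p-values. Values per library were not used, so depth is unknown and p-values measure the spread between the mice of each fit.

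The headers give no direction. Read as cKO minus control and LPS minus saline, group levels back-calculated from different tables differed by an SD of 0.0503 (cKO LPS) and 0.0537 (control LPS); with any sign turned, an SD was at least 0.226. Levels take mean log2 CPM as the log of the mean CPM over libraries of equal weight. Each standard error was taken as the size of the change over the square root of its F; intervals use the denominator degrees of freedom that F and p imply (8.66, 9.76 and 9.85). The difference of LPS responses was tested with standard errors from the normal quantile of p and Benjamini-Hochberg adjustment over all genes (Python 3.11.15, scipy 1.17.1), after a check on simulated tables.

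The members and lists were chosen with earlier results of these data known. Named genes are the 9 members, list members called in any comparison (at most 4 per list and comparison, but all for cyclic AMP signalling), Chd8 and the 10 genes of closest pattern outside the 9 (mean log2 CPM of at least 0); Gpr52, Bcl11b, Chrm4, Slc17a7, Ttr and Xist were named after their values were seen. Transcript lengths and GC content are from GENCODE M21, which gave both for 13730 genes; of each RefSeq promoter window, the 250 bases before the start were used. Alternatives were another threshold, a minimum fold, a level filter, another adjustment, centring and trend removal.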

Additional observations from a re-analysis of the deposited data

How the results depend on the processing

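With a GC and length trend removed, the median of the 9 genes moved by less than the smallest standard error among them. This held in each of the 3 deposited comparisons and in the difference of LPS responses. Centring on the median of all genes could hardly move it, since that median lay between -0.0027 and 0.0016 in the deposited comparisons. A minimum mean log2 CPM of 1 could not move it, since all 9 genes lay above that level. The count of genes called for LPS in cKO mice was 2 with the reported settings. It was 1 with a minimum change of 1.5-fold, 0 with Benjamini-Yekutieli adjustment and 3 at an adjusted p below 0.1. In the other comparisons the count was 0 under each alternative. There, a minimum fold and the Benjamini-Yekutieli adjustment could not have raised it, as both are stricter than the reported settings. The sign of 3 uncalled values turned: Adcy5 for LPS in cKO mice was -0.038 and Ppp1r1b for LPS in control mice -0.011 with the trend over GC content and length taken out, and Adcy5 for LPS in control mice was 0.0047 with the trend over mean log2 CPM removed. For LPS in cKO mice the call of Drd2 was lost with either trend removed (adjusted p of 0.056 and 0.078), and that of Ppp1r1b with the GC and length trend (adjusted p = 0.11) but not with the trend over mean log2 CPM (0.47, adjusted p = 0.040). The cause was not tested. Removing GC and length trends from single genes was chosen after seeing the data. No paired analysis was possible because the deposited tables hold comparisons and no values per library; for the same reason no replicate was left out. The depth behind each value is unknown.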

Other observations

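Downstream of the receptors, 24 genes of cyclic AMP and phosphatase signalling that neurons share widely lay close to 0 between the genotypes after LPS. Their median there was 0.02 in the authors' deposited table. None passed, where 0.00725% of all genes did, and 1 had an unadjusted p below 0.05, against 12.3% of all genes. Their standard errors were close to those of genes at the same level (median ratio 0.945). After LPS in cKO mice 6 of the 24 fell and 2 rose in the authors' deposited table, where 8.52% of all genes fell and 10.9% rose. The fall was largest for Adcy1, the calmodulin-stimulated adenylyl cyclase gene of cortex (-0.49 ± 0.07, FDR = 0.00617), followed by Creb1, the gene of a transcription factor that cyclic AMP activates (-0.28 ± 0.06, FDR = 0.0145), in the authors' deposited table. Gnai1, Ppp3cb, Prkar2b and Csnk2a1 fell by 0.18 to 0.23, and Gnao1 (0.34 ± 0.09) and Ppp2r5d (0.20 ± 0.06) rose, in that authors' deposited table. After LPS in control mice 4 fell (Prkacb, Gnb5, Ppp1ca and Ppp3cb, by 0.16 to 0.26) and 1 rose, the G protein subunit gene Gnao1 (0.46 ± 0.10, FDR = 0.0216), in the authors' deposited table, where 3.31% of all genes fell and 6.46% rose.

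Genes of the immediate early response, which neurons induce upon activity, lay on the opposite side from the striatal genes for cKO against control after LPS. All 10 were below 0, where 50.5% of all genes lay above 0. None passed, where 0.00725% of all genes did, and the median of the 10 was -0.75 in the authors' deposited table. An unadjusted p below 0.05 was found for 5 of the 10, against 12.3% of all genes. Their standard errors were large for their level too, with a median ratio of 3.97 beside 3.65 for the 9 striatal genes. Egr2 fell by 1.60 ± 0.26 (FDR = 0.00669) and Fos by 0.79 ± 0.23 (FDR = 0.0401) after LPS in cKO mice in the authors' deposited table. These were 2 of the 10, where 8.52% of all genes fell, and 4 of the 10 lay above 0. The thalamic marker Tcf7l2 rose after LPS in both genotypes, by 1.14 ± 0.31 in cKO (FDR = 0.0322) and 0.89 ± 0.24 in control mice (FDR = 0.0463), in the authors' deposited tables. Of the same list, Plekhg1 rose in cKO mice (0.33 ± 0.08, FDR = 0.0262) and Prkcd in control mice (0.52 ± 0.14, FDR = 0.0476) in the authors' deposited tables. In each genotype 2 of the 9 measured thalamic genes rose, against 10.9% of all genes in cKO and 6.46% in control mice. Among the 9, 6 lay above 0 and 3 below after LPS in each genotype. The level of Tcf7l2 was low, with a mean log2 CPM of 0.80 in the cKO and 0.66 in the control comparison. Rarres2, of the choroid plexus and ependyma list, rose after LPS in cKO mice (0.70 ± 0.16, FDR = 0.0196) in the authors' deposited table. It was 1 of the 5 measured genes of that list, where 10.9% of all genes rose. The summed level of the 5 choroid plexus and ependyma genes was 30.2 CPM in cKO LPS, 123 CPM in cKO saline, 17.8 CPM in control LPS and 122 CPM in control saline cortex. Ttr, the transthyretin gene, carried these differences without passing: LPS gave it -2.83 ± 1.86 in cKO mice (FDR = 0.303) and -4.03 ± 1.96 in control mice (FDR = 0.206) in the authors' deposited tables. Without Ttr the other 4 genes summed to 15.0 CPM in cKO LPS, 14.3 CPM in cKO saline, 11.4 CPM in control LPS and 15.9 CPM in control saline cortex.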
